A study of Saccharomyces cerevisiae with 6 samples.

Results

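Calcineurin is the calcium-activated protein phosphatase of budding yeast. When cytosolic calcium rises, calmodulin binds and activates it, and it removes phosphate from the transcription factor Crz1, which then enters the nucleus and induces pumps, cell wall enzymes and regulators of calcineurin itself. The calcium pumps and the exchanger then clear calcium from the cytosol into the vacuole and the Golgi, and the sodium pump Ena1 exports sodium from the cell. The genes described here are 10 named members of that pathway, taken by name for their known roles, with earlier results of these data known: the calcineurin subunit genes CNA1, CMP2 and CNB1, the factor gene CRZ1, the regulator genes RCN1 and RCN2, and the transporter genes PMC1, PMR1, VCX1 and ENA1. A gene was represented by the probe set that carries its symbol in the platform annotation. Of the 10 genes, 9 had such a probe set, among 5449 budding yeast genes tested. No probe set was annotated to ENA1, so it has no value here, and its near relative ENA5 is described in its place under its own name.

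Levels were measured on 6 Affymetrix arrays, 3 with RNA of npl3 deletion cells and 3 with RNA of wild type (WT) cells. Npl3 binds mRNA as it is made, belongs to the SR-like and hnRNP proteins, and is known for roles in splicing and export. The npl3 deletion strain is WNPL3B1-2B, with KanMX in place of NPL3, and the WT strain is W303-1A bar1∆. Both are MATa and carry the nutritional alleles ura3-1, trp1-1 and ade2-1 together with leu2-3,112 and his3-11,15, the allele can1-100, and a bar1 deletion marked with HphMX, and both were in mid-log growth in rich glucose medium. Each genotype is 1 strain with 3 biological replicates, so a change that the strain carries beside the deletion cannot be told apart from the deletion. The values are log2 expression values. They are relative within a probe set, so levels of different genes are not set against each other. In RNA of a whole culture, a change in every cell and a change in some cells cannot be told apart.

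The labels were checked on a few genes. NPL3 read 3.96 ± 0.14 in npl3 deletion cells and 11.15 ± 0.35 in WT cells (mean ± SD, n = 3 each), and BAR1, deleted in both, read 1.06 ± 0.26 in npl3 deletion cells and 1.10 ± 0.15 in WT cells. LEU2 read 8.51 ± 0.12 in npl3 deletion cells and 2.85 ± 0.07 in WT cells, while the labels name the same allele for both. Of the markers of a cells, MFA1, MFA2, STE2 and STE6 averaged 9.68 to 11.18 in npl3 deletion cells and 10.15 to 11.14 in WT cells. MFA1, MFA2 and STE6 fell by 0.88, 0.62 and 0.34 (limma adjusted p = 2.5e-05, 0.000128 and 0.00365). STE2 differed by 0.04 (limma adjusted p = 0.434). Of the markers of alpha cells, MF(ALPHA)1, MF(ALPHA)2 and STE3 averaged 3.13 to 4.41 in npl3 deletion cells and 3.72 to 4.35 in WT cells. SAG1 was at 7.86 ± 0.07 in npl3 deletion cells and 7.38 ± 0.19 in WT cells, a rise of 0.48 (limma adjusted p = 0.00291). MF(ALPHA)1 and MF(ALPHA)2 fell by 0.89 and 0.21 (limma adjusted p = 0.000569 and 0.0128). The call of MF(ALPHA)2 ended under the variance model with trend and robust fitting (adjusted p = 0.178). STE3 differed by 0.06 (limma adjusted p = 0.56). Both group means of all 4 alpha-cell markers were above 2.13, the background level. It was taken from the 95th percentile of the means of probe sets whose symbol matched no budding yeast gene. By the higher group mean, 5409 of 5449 genes passed this level, and NPL3 read 3.96 in cells that lack the gene. A value above this level therefore does not show that a gene is expressed. The array controls moved with the genotype. All 27 probe sets for hybridization controls were lower in npl3 deletion cells, with array means of 7.83 to 8.99 against 9.12 to 9.27 in WT cells, and npl3 deletion replicate 1 was the lowest. Of the 42 for labelling controls, 39 were higher in npl3 deletion cells, with array means of 4.17 to 4.50 against 3.70 to 3.86 in WT cells. For 8 of 8 yeast control genes the signal near the 5′ end, relative to that near the 3′ end, was higher in npl3 deletion cells, by a median of 0.37. The part of these differences in the results below was not tested.

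Of the 9 measured genes, 5 were higher and 1 was lower in npl3 deletion cells at a limma adjusted p under 0.05, and 3 did not pass. The vacuolar calcium pump gene PMC1 and the calcineurin regulator genes RCN2 and RCN1 rose by 2.01-fold, 1.89-fold and 1.77-fold. The catalytic subunit genes CNA1 and CMP2 rose by 1.44-fold and 1.18-fold. The Golgi pump gene PMR1 fell by 0.31 on the log2 scale. CNB1, CRZ1 and VCX1 were not called. Most genes on these arrays passed the same test: 61.8% of all 5449, with 32.9% higher and 28.9% lower. The 6 of 9 calls, 66.7%, are near that share. With each array centred on the median of all its 10928 probe sets, 1396 genes were higher and 1676 lower. Only 5498 of these probe sets matched a budding yeast gene, so that median is not the median of the genes tested. Without centring, 1793 were higher and 1576 lower. The count among the members was 5 higher and 1 lower in both. The median difference of the 9 was 0.24 on the log2 scale, against 0.01 over all genes, and their median absolute difference was 0.31, against 0.23. The 3 and 3 arrays did not overlap for 7 of the 9, where 68.8% of all genes showed no overlap. A fold change of at least 1.5 beside the adjusted p was reached by 3 of the 9, all higher. Over all genes 16.9% reached it in either direction, 451 higher and 472 lower.

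**Figure D1:**
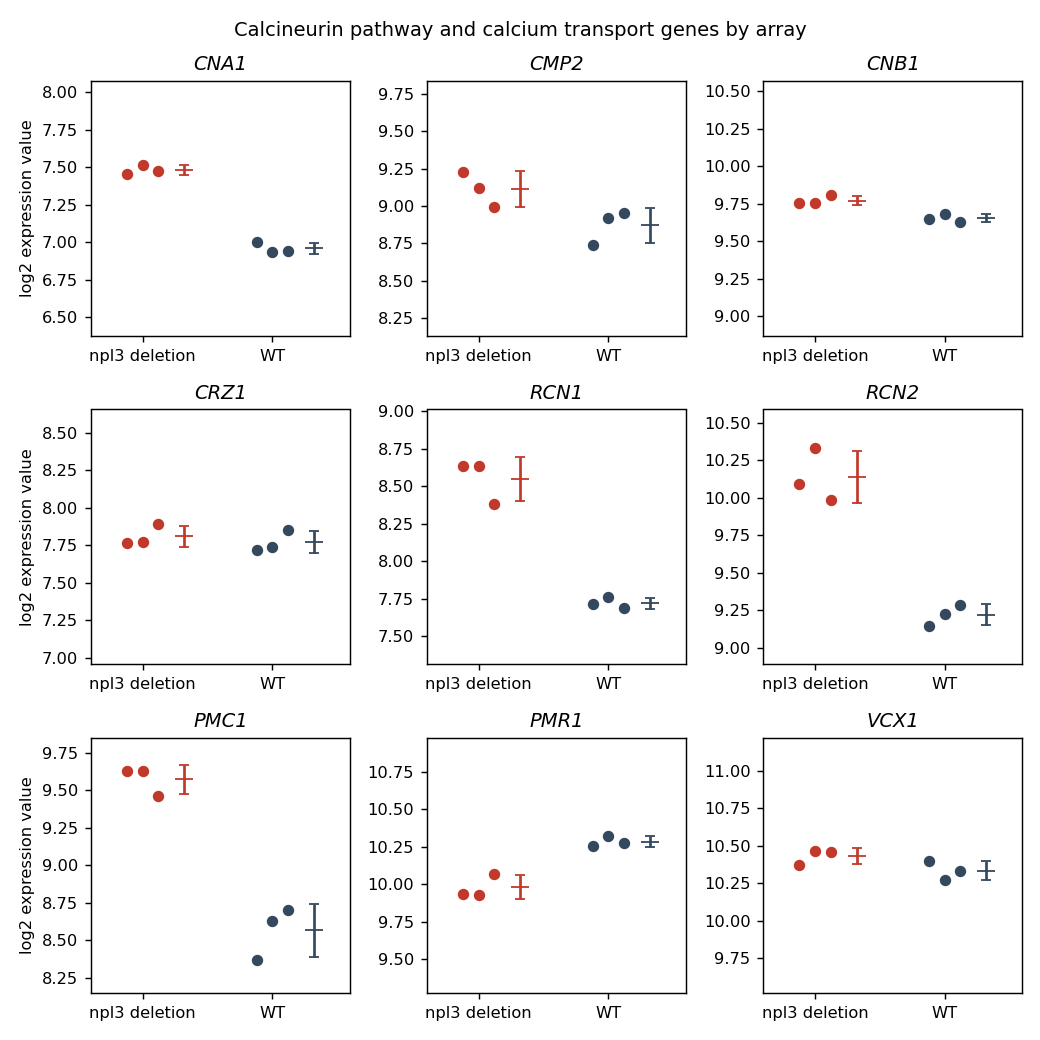
Log2 expression values of the 9 measured genes on each array, with a panel per gene, npl3 deletion arrays left of WT arrays, and the mean ± SD of 3 arrays beside each group. Every panel spans the same number of log2 units, so distances can be compared between panels but heights cannot. The groups lie apart for RCN1, RCN2, PMC1 and CNA1, and for PMR1 with the npl3 deletion arrays lower. They lie narrowly apart for CNB1 and CMP2 and overlap for CRZ1 and VCX1.

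Calcineurin consists of a catalytic subunit, made from either of the paralogous genes CNA1 and CMP2, and the calcium-binding regulatory subunit made from CNB1. CNA1 (YLR433C, chromosome XII) was at 7.46, 7.52 and 7.47 in npl3 deletion cells, against 6.999, 6.93 and 6.94 in WT cells. The lowest npl3 deletion array was 0.46 above the highest WT array. The difference was 0.52 on the log2 scale (SE 0.05, limma adjusted p = 4.65e-05), larger in size than that of 79.8% of all genes.

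CMP2 (YML057W, chromosome XIII) was at 9.23, 9.12 and 8.99 in npl3 deletion cells, against 8.74, 8.92 and 8.96 in WT cells. The groups came within 0.04 of each other without overlapping. The difference was 0.24 (SE 0.08, limma adjusted p = 0.0323). This call rests on single arrays: it ended without WT replicate 1, at a difference of 0.17 (adjusted p = 0.0827). It also ended when npl3 deletion replicate 1 was left out, at 0.18 (adjusted p = 0.101), and for replicate 2 of that group, at 0.24 (adjusted p = 0.08). Array weights gave 0.19 (adjusted p = 0.0534).

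CNB1 (YKL190W, chromosome XI), a gene with an intron, was at 9.75, 9.75 and 9.81 in npl3 deletion cells, against 9.65, 9.68 and 9.63 in WT cells. The groups did not overlap, and the gap between them was 0.07. The difference of 0.12 had a 95% interval of 0.01 to 0.22 and stood at the edge of the threshold (limma adjusted p = 0.0502). It passed under 4 alternatives, with adjusted p from 0.0275 to 0.0499 and a difference of 0.12 to 0.13. The values do not tell spliced from unspliced CNB1 RNA.

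The catalytic paralogs were also set against each other within each array, a comparison chosen after their values were seen, like the other 3 pairs of genes below. CNA1 minus CMP2 changed by 0.28 between the genotypes, npl3 deletion minus WT, and the groups overlapped (exact permutation p = 0.2, two-sided, 0.267 adjusted over the 4 pairs). With 3 arrays per group no p below 0.1 is possible, so this test could not have passed 0.05 for any pair and does not show that the genes of a pair moved alike.

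CRZ1 (YNL027W, chromosome XIV) encodes the zinc finger factor that calcineurin dephosphorylates. Its transcript read 7.77, 7.77 and 7.89 in npl3 deletion cells, against 7.72, 7.74 and 7.85 in WT cells. The groups overlapped almost fully. The difference was 0.04 with a 95% interval of -0.10 to 0.18 (limma adjusted p = 0.594), larger in size than that of 10.2% of all genes. Crz1 is controlled mainly by its phosphorylation and its place in the cell, which these arrays do not measure.

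RCN1 and RCN2 encode regulators of calcineurin, RCN1 being the yeast member of the calcipressin family, and RCN1 is itself a textbook target of Crz1. RCN1 (YKL159C, chromosome XI) was at 8.63, 8.64 and 8.38 in npl3 deletion cells, against 7.71, 7.76 and 7.69 in WT cells. All npl3 deletion arrays were at least 0.62 above every WT array. The difference was 0.83 (SE 0.08, limma adjusted p = 6.13e-05), with a leave-one-out range of 0.78 to 0.91.

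RCN2 (YOR220W, chromosome XV) was at 10.09, 10.33 and 9.99 in npl3 deletion cells, against 9.15, 9.22 and 9.29 in WT cells. The smallest distance between the groups was 0.70. The difference was 0.92 (SE 0.09, limma adjusted p = 8.34e-05), with a leave-one-out range of 0.82 to 0.99. RCN1 minus RCN2 changed by -0.09 between the genotypes (exact permutation p = 0.3, two-sided, 0.3 adjusted over the 4 pairs).

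**Figure D2:**
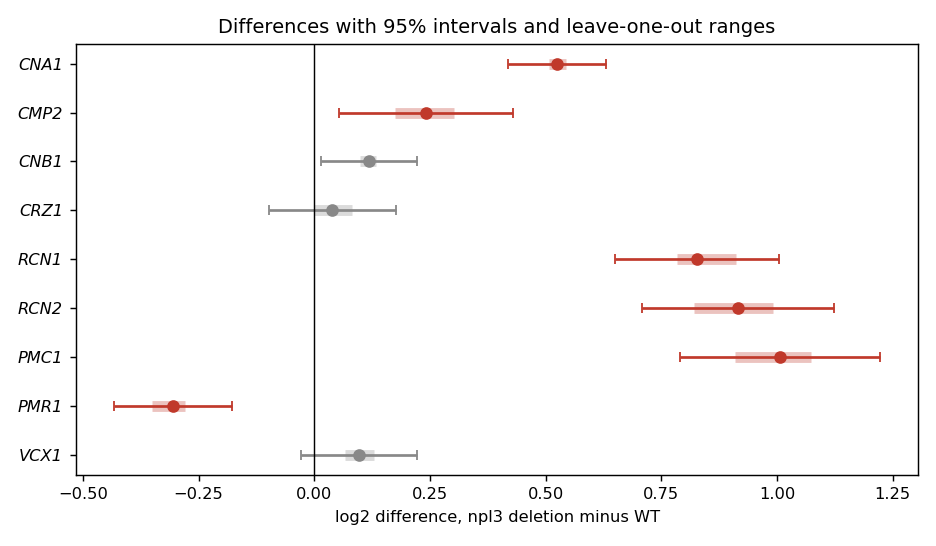
Log2 difference of each measured gene, npl3 deletion minus WT, with its 95% interval from limma (thin bar) and the range with each of the 6 arrays left out in turn (wide pale bar). Genes that passed the test are red and the others grey. PMC1, RCN2 and RCN1 lie between 0.83 and 1.01, and PMR1 lies below 0 at -0.31.

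PMC1 encodes the calcium pump of the vacuole membrane, the main store of calcium in yeast, and is induced through Crz1. It is on chromosome VII (YGL006W). It was at 9.63, 9.63 and 9.46 in npl3 deletion cells, against 8.37, 8.63 and 8.70 in WT cells. The groups were 0.76 apart at their nearest, and the widest spread was among the WT arrays, where replicate 1 was lowest. The difference was 1.01 (SE 0.09, limma adjusted p = 6.36e-05). It was the largest of the 9 and larger in size than that of 93.3% of all genes. The leave-one-out range was 0.91 to 1.07.

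PMR1 (YGL167C, chromosome VII) encodes the calcium and manganese pump of the Golgi, and Crz1 has been described as an activator of it too. It was at 9.94, 9.93 and 10.07 in npl3 deletion cells, against 10.26, 10.32 and 10.27 in WT cells. All npl3 deletion arrays were at least 0.18 below every WT array. It fell by 0.31 (SE 0.05, limma adjusted p = 0.00196), the only one of the 6 called genes with a fall. PMC1 minus PMR1 changed by 1.31, and the groups did not overlap (exact permutation p = 0.1, two-sided, 0.2 adjusted over the 4 pairs).

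VCX1 (YDL128W, chromosome IV) encodes the vacuolar exchanger that takes up calcium against protons, and calcineurin is known to restrain its activity. It was at 10.37, 10.46 and 10.46 in npl3 deletion cells, against 10.40, 10.27 and 10.33 in WT cells. The groups overlapped. The difference of 0.10 had a 95% interval of -0.03 to 0.22 (limma adjusted p = 0.152), so that a rise as large as that of PMC1 lies outside it. PMC1 minus VCX1 changed by 0.91, again without overlap (exact permutation p = 0.1, 0.2 adjusted over the 4 pairs).

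The sodium pump genes ENA1, ENA2 and ENA5 stand next to each other on chromosome IV in the reference assembly and are close copies. Neither ENA1 nor ENA2 had a probe set of its own in the annotation, and ENA5 had 2. The brighter one, of the s type that can match several transcripts, was at 10.48, 10.40 and 10.51 in npl3 deletion cells, against 9.69, 9.79 and 9.84 in WT cells. Its arrays did not overlap between the genotypes, and the difference was 0.69 (SE 0.06, limma adjusted p = 3.6e-05), a fold of 1.62. The other probe set was at 8.28, 8.33 and 8.32 in npl3 deletion cells, against 8.30, 8.32 and 8.34 in WT cells. It differed by -0.01 (SE 0.04, adjusted p = 0.815 over all 5498 probe sets), with overlapping groups. Which of the 3 genes each probe set reads was not tested, since no probe sequences were used here. Neither value can therefore be assigned to ENA1, nor to ENA5 alone.

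**Figure D3:**
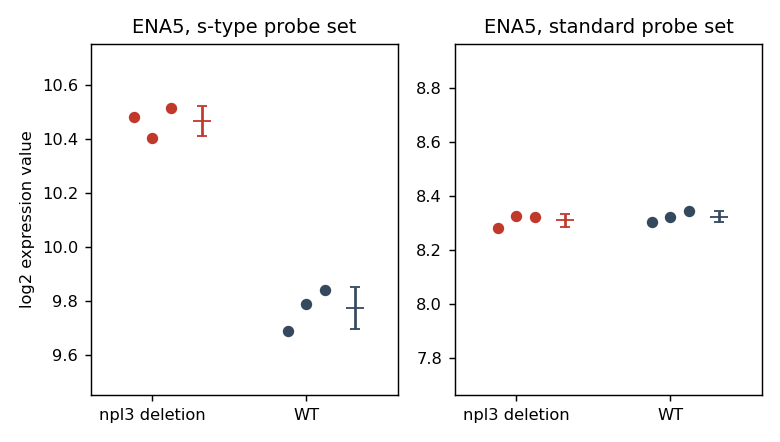
Log2 expression values of the 2 probe sets annotated to ENA5 on each array, npl3 deletion arrays left of WT arrays, with mean ± SD of 3 arrays beside each group; both panels span the same number of log2 units. The s-type probe set reads 10.40 to 10.51 in npl3 deletion cells and 9.69 to 9.84 in WT cells, while the other reads 8.28 to 8.34 on all 6 arrays.

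Among the npl3 deletion arrays, 1 lay nearest to WT for most of the called members. For CMP2, RCN1, RCN2, PMC1 and PMR1, that is 5 of the 6 called genes, npl3 deletion replicate 3 was the array nearest to the WT mean, and for CNA1 it was replicate 1. Over all 3369 called genes, replicate 3 was nearest for 29.4%. For the 7 Crz1-dependent genes described next, it was nearest for 2 and replicate 2 for 5. Without replicate 3 the 6 called members were still called, with PMC1 at 1.06, RCN2 at 0.99 and RCN1 at 0.91.

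Other genes with Crz1-dependent induction, a list compiled from background knowledge with earlier results known, the rise of PHO89 among them, were all higher in npl3 deletion cells. Of 8 genes, NCW2 had no probe set of its symbol, and the other 7 passed the test with a rise, where 32.9% of all genes were higher. Their median difference was 0.83, against 0.01 over all genes. A rise of at least 1.5-fold was reached by 6 of the 7, against 16.9% of all genes in either direction, 451 of these higher. Since the list was not drawn up blind to these data, its count and median are a description. No array overlapped between the genotypes for any of the 7, where 68.8% of all genes showed no overlap. The count was 7 with each array left out in turn and under every normalization and variance model tried. These recounts use the same chosen genes and the same arrays, so they share that limit and add no support.

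PHO89, the sodium-coupled phosphate transporter gene, moved most. It was at 12.005, 11.82 and 11.81 in npl3 deletion cells, against 8.15, 7.94 and 7.86 in WT cells, a difference of 3.90 (SE 0.09, limma adjusted p = 1.22e-07). Low phosphate also induces PHO89, through another factor. GSC2, also called FKS2, the inducible catalytic subunit of glucan synthase, was at 11.58, 11.42 and 11.47 in npl3 deletion cells, against 9.95, 10.15 and 10.20 in WT cells. Its difference was 1.39 (SE 0.08, limma adjusted p = 5.83e-06).

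The other 5 moved less. The rises were 0.86 for YPS1, a cell surface aspartyl protease, 0.83 for CHS1, a chitin synthase, and 0.66 for SCW10, a wall protein related to glucanases. They were 0.59 for MEP1, an ammonium permease, and 0.56 for CRH1, which links chitin to glucan (limma adjusted p from 5.25e-06 to 0.000601). Most of these genes act at the cell wall, and several are also known to be induced by the cell integrity pathway.

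**Figure D4:**
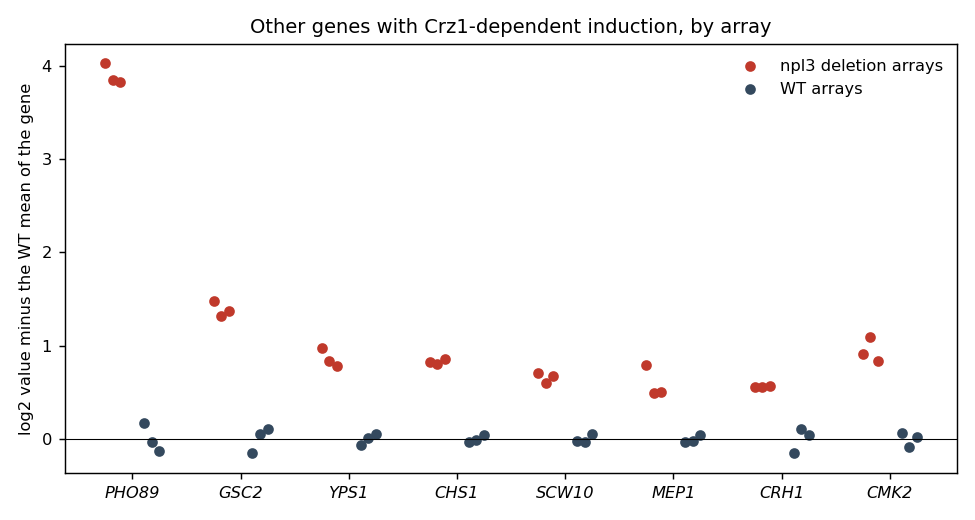
Log2 value of each array minus the WT mean of the same gene, for the 7 measured genes of the Crz1-dependent list and for CMK2, with npl3 deletion arrays (red) left of WT arrays (blue). All red points lie above all blue points of the same gene, from 0.56 on average for CRH1 to 3.90 for PHO89. CMK2 belongs to the list of calcium entry, release and calmodulin and was added as a further Crz1 target. The members described above as Crz1 targets are not drawn: PMC1 and RCN1 rose, and PMR1 fell, with a difference of -0.31.

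Genes of calcium entry, release and calmodulin, calmodulin-dependent kinases included, were called at a share near that of all genes. Of 11 genes, 3 rose and 3 fell, while 5 did not pass, so that 54.5% were called against 61.8% of all genes, and the median was 0.01. CMK2, a calmodulin-dependent kinase and itself a target of Crz1, was at 10.80, 10.99 and 10.72 in npl3 deletion cells, against 9.96, 9.80 and 9.91 in WT cells. It rose by 0.95 (SE 0.08, limma adjusted p = 3.46e-05). FLC2, a membrane protein linked to calcium release and FAD transport, rose by 0.99 (SE 0.06, limma adjusted p = 5.63e-06), and the calmodulin gene CMD1, named after its value was seen, rose by 0.36 (adjusted p = 0.000318). FLC2 lies on chromosome I, of whose 90 genes 74 were higher, with a median of 0.83. Its part in the rise of FLC2 was not tested.

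The vacuolar calcium release channel gene YVC1 fell by 0.37 (SE 0.05, limma adjusted p = 0.000401). FIG1, which acts in calcium entry during mating, was at 3.49 ± 0.20 in npl3 deletion cells and 4.26 ± 0.23 in WT cells (n = 3 each). It fell by 0.77 (adjusted p = 0.00179), and its difference was -0.64 to -0.92 over the alternatives. These values are about as low as the 3.96 that NPL3 read in cells that lack the gene. The genes of the plasma membrane channel, CCH1 and MID1, and its regulator ECM7 differed by -0.06, -0.01 and 0.05 and were not called. GDT1, a Golgi transporter of calcium and manganese like PMR1, fell by 0.21 (adjusted p = 0.0109). These last 4 genes were named after their values were seen.

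Among calcineurin substrates and factors that act on Crz1, 2 of 10 rose and 2 fell, while 6 did not pass, so that 40% were called against 61.8% of all genes, and the median was 0.00. FRT2, an endoplasmic reticulum protein and partner of the calcineurin substrate Frt1, rose by 1.01 (SE 0.06, limma adjusted p = 5.35e-06). It also lies on chromosome I, while FRT1 differed by -0.01 (adjusted p = 0.875). SLM2, a lipid-binding protein of the plasma membrane and a calcineurin substrate, rose by 0.23 (adjusted p = 0.0132), and by 0.19 with median centring, where its call ended (adjusted p = 0.0736). NMD5, the importin that carries Crz1 into the nucleus, fell by 0.33 (adjusted p = 0.00177), and TPK2, a catalytic subunit of protein kinase A, which phosphorylates Crz1, fell by 0.34 (adjusted p = 0.0062).

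Of 10 measured transporters of sodium, potassium and protons, ENA5 included, 3 rose and 5 fell, while 2 did not pass. Thus 80% were called against 61.8% of all genes, and the median was -0.13. Without s and x probe sets 2 rose and 5 fell, as the other probe set then stood for ENA5. KHA1, a putative potassium and proton antiporter, rose by 0.90 (SE 0.06, limma adjusted p = 1.25e-05). VNX1, the vacuolar exchanger of sodium or potassium for protons, fell by 0.55 (adjusted p = 0.000105), and TRK1, the high-affinity potassium uptake system, fell by 0.37 (adjusted p = 0.00289).

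ENA1 is also controlled by repressors and by osmotic and pH signalling. Of 9 regulators of that kind, 2 rose and 3 fell, while 4 did not pass, so that 55.6% were called against 61.8% of all genes, and the median was -0.10. The repressor gene NRG1 was at 8.30 ± 0.04 in npl3 deletion cells and 8.83 ± 0.09 in WT cells (n = 3 each). It fell by 0.53 (limma adjusted p = 0.00016), while its relative NRG2 rose by 0.33 (adjusted p = 0.00128). The osmotic stress kinase gene HOG1 fell by 0.50 (adjusted p = 4.08e-05), and SKO1, a factor that Hog1 controls, rose by 0.17 (adjusted p = 0.0261). The call of SKO1 ended when any array but WT replicate 3 was left out (adjusted p from 0.0578 to 0.0701), and with median centring (0.12, adjusted p = 0.121).

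**Figure D5:**
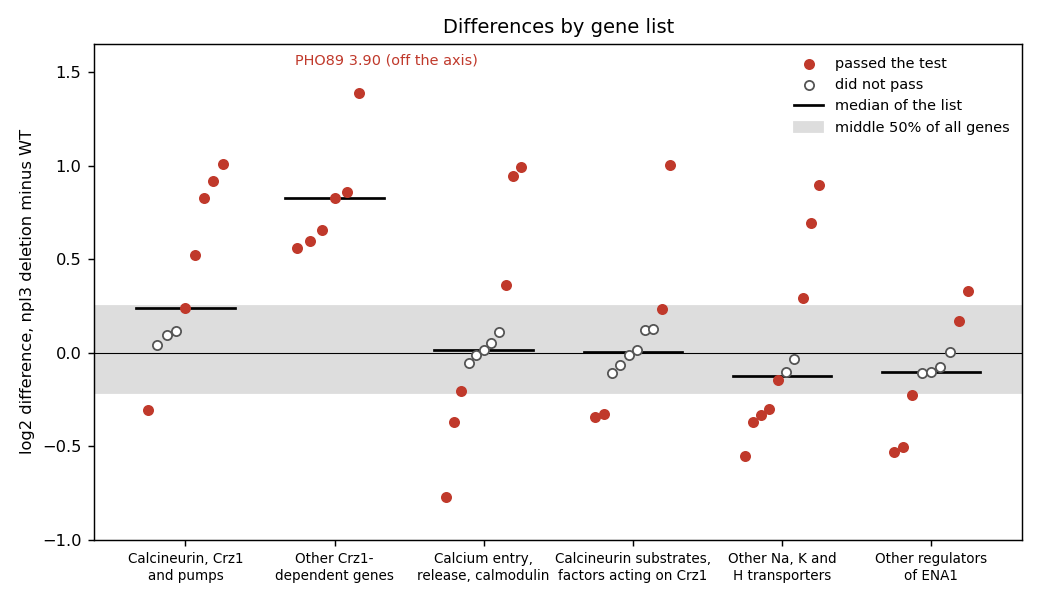
Log2 differences, npl3 deletion minus WT, of the measured genes of 6 lists, with genes that passed the test filled and the others open. The black line is the median of a list and the grey band holds the middle 50% of all 5449 genes, -0.21 to 0.25; PHO89, at 3.90, lies off the axis. Only in the list of other Crz1-dependent genes do all points lie above the band. That list was not drawn up blind to these data, so this is a description.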

How the data were processed

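Per the labels, biotin-labelled cRNA of 1 culture was hybridised to each of 6 arrays. The authors deposited a log2 expression value for every probe set on each array. Per the submitters' processing notes, RMA and limma were used, with versions and settings not given in the sources used here. RMA equalises the arrays, so a shift shared by most transcripts would not show. Array medians were 4.81 to 4.98, and the values were not normalized again.

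Of 10928 probe sets, 7244 had 1 gene symbol, 1 several and 3683 none. 5498 matched a budding yeast gene through its gene ID (reference table of assembly R64) and 1746 did not. The 95th percentile of the means of those 1746, 2.13, served as the background level. All 9 measured members passed it by the higher group mean, as did 5409 of all 5449 genes. The brightest probe set by the mean of all 6 arrays stood for each of the 47 genes with several, leaving 5449 genes.

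The npl3 deletion and WT groups were compared with limma 3.58.1 (R 4.3.3), by two-sided lmFit and eBayes tests with no covariates, with Benjamini-Hochberg adjustment over all 5449 genes and a threshold of 0.05. Adjusted p-values of genes are from this fit unless an alternative is named or the adjustment is over all 5498 probe sets. The 95% intervals are not adjusted. The procedure was tested on simulated data. The number of arrays limits the precision. Pairs of genes were compared by an exact permutation test of their difference within arrays. Figures were drawn with Python 3.11.15, NumPy 2.4.6, pandas 2.3.3 and matplotlib 3.10.9.

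The members and lists were chosen with earlier results of these data known, PHO89 among them. The rule names all members, the 2 largest rises and falls among the called genes of each list, ENA5 and unmeasured genes, of which 1 item is not reported here. Genes of the Crz1-dependent list beyond PHO89 and GSC2, FRT1 and LEU2, were named after their values were seen. Alternatives tried were median centring, quantile normalization, leaving out each array, a replicate block, a filter on dim genes, array weights, a variance model with trend and robust fitting, averaged probe sets, no s or x probe sets and stricter thresholds. A search of promoters for the Crz1 binding motif was not run, since no sequences were used here.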

Additional observations from a re-analysis of the deposited data

How the results depend on the processing

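The 9 member differences were recomputed under 14 alternatives each, 126 values in all. Of these, 117 kept their side of the threshold, 9 changed it (CMP2 and CNB1 only) and 0 reversed a call. CMP2 also lost its call with the replicate block (adjusted p = 0.0757). The replicate numbers were not treated as pairs, since deviations of arrays with the same number correlated at -0.14, -0.07 and -0.19 and 0 of 3 npl3 deletion arrays correlated best with their own number. The block left 5 of the members called, and moved no count by more than 1.5 times. SKO1 lost its call as well (adjusted p = 0.0624). CRZ1, never called, differed by -0.01 to 0.08 over the alternatives. ENA5 went to -0.0127 (adjusted p = 0.815) without s and x probe sets, because another probe set then stands for it. With a fold change of at least 1.5 required as well, 923 of all genes, 3 members, 3 genes of calcium entry and release, 1 of calcineurin substrates and Crz1 factors, 2 of cation transport and 0 regulators of ENA1 were called, the last against 5 at the limma adjusted p of 0.05 alone. With each array left out, 5 to 6 members, 7 to 7 Crz1-dependent genes and 2926 to 3288 of all genes were called.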

Other observations

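Genes next to the measured members were read as a description, chosen after the data were seen. Of 20 measured neighbours of the members and of ENA5, 6 rose, 5 fell and 9 were not called, a share of 55% called against 61.8% of all genes. RCN2 stood between STE13, a Golgi peptidase gene that rose by 0.85 (SE 0.07, limma adjusted p = 2.65e-05), and MCT1, a mitochondrial acyltransferase gene that fell by 0.78 (SE 0.05, adjusted p = 8.13e-06). Beside PMR1, the copper-responsive factor gene CUP2 rose by 0.59 (adjusted p = 0.00015). Beside PMC1, COG7 of the Golgi tethering complex fell by 0.25 (adjusted p = 0.0177), a call that ended without npl3 deletion replicate 1 (difference -0.23, adjusted p = 0.0557). Beside CNA1, IMD3 and TSR2 rose by 0.20 and 0.39 (adjusted p = 0.00444 and 0.000482); IMD3 was not called with median centring (0.16, adjusted p = 0.0739). Beside ENA1, RSM10 of the mitochondrial ribosome rose by 0.40 (adjusted p = 0.000759), and KRS1 beside ENA5 differed by -0.10 (adjusted p = 0.156).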
